A study of Rattus norvegicus with 8 samples.

Results

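The metabotropic GABA-B receptor genes Gabbr1 and Gabbr2 and their KCTD auxiliary genes Kctd8, Kctd12 and Kctd16 were examined in cultured rat hippocampal neurons. The 5 genes were chosen by symbol, and the authors' deposited comparison table paired 2 of them, Gabbr1 and Gabbr2, with an Ensembl identifier, out of 32623 genes in the count tables. The table had no row with the symbols Kctd8, Kctd12 or Kctd16, so these 3 genes were not analysed here. The study sequenced polyadenylated RNA from wild type rat cultures (strain SD, tissue given as brain) at 18 days in vitro, in 4 libraries of cultures that received an NMDA receptor potentiator (PAM, a positive allosteric modulator) and 4 of cultures that received vehicle. A positive allosteric modulator raises the response of a receptor to its own agonist. The labels name neither the compound nor its dose or duration, and they do not say whether replicates came from separate cultures, so p-values measure the spread between these libraries, which may be partly technical.

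GABA-B receptors are G protein-coupled receptors for GABA, the main inhibitory transmitter of the brain, and mediate its slow actions. They work as obligate heteromers: the GABBR1 subunit binds GABA, while GABBR2 couples to Gi/o proteins and masks the retention signal that would otherwise hold GABBR1 in the endoplasmic reticulum. On the presynaptic side they restrain voltage-gated calcium channels and transmitter release, and on dendrites they open GIRK potassium channels and lower cyclic AMP. KCTD8, KCTD12 and KCTD16 bind the cytoplasmic tail of GABBR2 and shape how fast the response begins and fades.

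Gabbr1 (ENSRNOG00000000774) lies on the minus strand of chromosome 20, at 1955359 to 1984863 of Rnor_6.0, and its 22 merged exons add up to 6737 bases. Gabbr2 (ENSRNOG00000008431) lies on the minus strand of chromosome 5, at 62276100 to 62621737 of Rnor_6.0, with 19 merged exons that add up to 5475 bases over a span of 345638 bases. All counts were per gene over these exons, so the GABA-B1a and GABA-B1b transcripts, which start from different promoters of Gabbr1, were counted together. An opposite-strand gene without a symbol lies within the span of Gabbr1 and shares 0 exon bases with it, and it had 40 counts in all 8 libraries against 35159 for Gabbr1. No annotated gene overlapped the span of Gabbr2.

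The 250 bases before the annotated start of each gene, from RefSeq on build GRCr8, are shown because both genes had lower CPM in PAM libraries. The Gabbr1 window is chr20:1499237-1499486 and the Gabbr2 window is chr5:66083696-66083945, both on the minus strand and written 5′ to 3′ on that strand. Capitals mark TGACG or its reverse complement CGTCA, the core of the cyclic AMP response element that CREB and ATF factors bind.
Gabbr1: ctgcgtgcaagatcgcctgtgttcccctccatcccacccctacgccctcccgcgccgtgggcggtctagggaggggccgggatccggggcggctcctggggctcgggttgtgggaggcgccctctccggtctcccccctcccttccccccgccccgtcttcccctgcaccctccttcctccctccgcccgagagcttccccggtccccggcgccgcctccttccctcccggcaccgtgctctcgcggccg
Gabbr2: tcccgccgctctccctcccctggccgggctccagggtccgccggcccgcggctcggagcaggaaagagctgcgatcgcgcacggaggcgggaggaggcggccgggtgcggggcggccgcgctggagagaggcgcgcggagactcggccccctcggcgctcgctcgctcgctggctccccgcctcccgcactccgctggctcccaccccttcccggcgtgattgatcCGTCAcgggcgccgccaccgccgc
The Gabbr2 window held 1 match to this core, which begins at position -24 relative to the annotated start, and the Gabbr1 window held 0. The Gabbr1 window lies before a single annotated start. Whether it belongs to the GABA-B1a or the GABA-B1b promoter was not determined, and the other promoter was not searched. The core was found on either strand in 18.2% of all 33469 windows of the same length. GGGCGG or its reverse complement CCGCCC, the core of the GC box, occurred 4 times in the Gabbr1 window and 1 time in the Gabbr2 window, and in 30.5% of all windows. Both windows were rich in G and C, at 75.6% for Gabbr1 and 78.8% for Gabbr2, against a median of 51.2% over all windows. A match describes the letters and says nothing of binding.

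The libraries held 2960406 to 4389430 counts with PAM and 3175404 to 3679249 with vehicle, and a count of 0 set a limit of 0.683 to 1.01 CPM (3 counts), which covers counting error only. CPM are TMM-scaled counts on a common library depth. With edgeR's quasi-likelihood test at a Benjamini-Hochberg adjusted p under 0.05, 2219 of 11740 tested genes (18.9%) passed; 1162 (9.90%) fell and 1057 (9.00%) rose with PAM. In the PAM libraries the 4th and, less so, the 3rd had proportionally fewer counts in long genes, with slopes of -0.132 and -0.0853 log2 CPM per doubling of exonic length, against 0.0627 in the 2nd and 0.00524 in the 1st. The 4 vehicle libraries lay between 0.0146 and 0.0516.

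Both measured subunit genes fell with PAM, Gabbr2 by far more than Gabbr1. Gabbr2 was 60.4% lower in PAM libraries and Gabbr1 19.0% lower. With 9.90% of all tested genes falling, a fall by itself is frequent in this comparison, and the fall of Gabbr1 was among its smallest.

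Gabbr2 had 298, 410, 268 and 212 counts in PAM libraries 1 to 4, against 618, 728, 631 and 579 counts in vehicle libraries 1 to 4. After scaling these became 68.4, 87.0, 73.0 and 76.1 CPM with PAM, against 187.5, 199.5, 196.6 and 186.5 CPM with vehicle. Every PAM library lay far below every vehicle library, and the highest PAM library, the 2nd, had less than the lowest vehicle library by a wide gap. The group means were 76.1 ± 7.92 CPM with PAM and 192.5 ± 6.50 CPM with vehicle (SD, n = 4 each). The coefficient of variation of Gabbr2 was 10.4% over PAM libraries and 3.38% over vehicle libraries. The log2 fold change was -1.34 ± 0.11 (SE), a 2.53-fold lower level, with an adjusted p of 6.13e-07 in edgeR. By p, Gabbr2 ranked 4 among all 11740 tested genes, and by size it ranked 91 among the 1162 that fell. The groups did not overlap, in either direction, for 22.3% of all tested genes. The authors' deposited table gives Gabbr2 a log2 fold change of -1.34 with an adjusted p of 3.24e-27.

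Gabbr1 had 4696, 4978, 4160 and 3228 counts in PAM libraries 1 to 4, against 4270, 4957, 4516 and 4354 counts in vehicle libraries 1 to 4. After scaling the PAM libraries had 1077, 1057, 1134 and 1158 CPM, against 1296, 1358, 1407 and 1402 CPM in the vehicle libraries. The scaled groups did not overlap, although the raw counts did, and 3 of the PAM libraries were deeper than every vehicle library. The means were 1106 ± 47.5 CPM with PAM and 1366 ± 51.7 CPM with vehicle (SD, n = 4 each). The log2 fold change was -0.30 ± 0.09 (SE), with an adjusted p of 0.0262 in edgeR, and by size the gene ranked 1157 among the 1162 that fell. In the authors' deposited table the log2 fold change of Gabbr1 is -0.31 with an adjusted p of 0.0025. This call was near the threshold. It was lost without PAM library 1 (adjusted p 0.0619), or without vehicle library 2 (0.0794), 3 (0.0853) or 4 (0.0867), and once a trend with gene length was removed from each library (log2 fold change -0.17, adjusted p 0.237, edgeR). Gabbr2 passed under the same alternatives. The call of Gabbr1 was kept without PAM libraries 3 and 4 together (log2 fold change -0.34, adjusted p 0.0015, edgeR). It was also kept with DESeq2 (-0.30, adjusted p 0.0022).

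**Figure D1:**
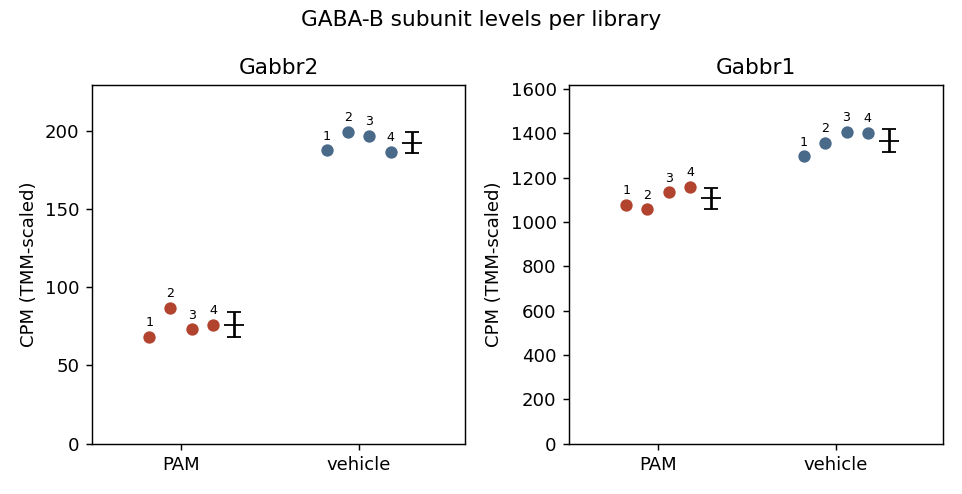
CPM of Gabbr2 (left) and Gabbr1 (right) in each PAM and vehicle library, numbered by replicate, with the mean and SD of each group as black bars, on axes that start at 0. All 4 PAM libraries of Gabbr2 sit between 68.4 and 87.0 CPM and all 4 vehicle libraries between 186.5 and 199.5 CPM, while the groups of Gabbr1 lie close together without overlap.

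Per kilobase of exon, Gabbr1 was the more abundant subunit transcript in both groups. Gabbr1 had 164 ± 7.05 CPM per kb with PAM and 203 ± 7.67 CPM per kb with vehicle. Gabbr2 had 13.9 ± 1.45 CPM per kb with PAM and 35.2 ± 1.19 CPM per kb with vehicle (SD, n = 4 each). Among all tested genes on this scale, Gabbr2 was at percentile 55.8 with PAM and 77.5 with vehicle. Gabbr1 was at percentile 95.3 with PAM and 96.4 with vehicle.

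The balance of the 2 subunit transcripts is a ratio within a library and does not depend on scaling between libraries. Gabbr2 made up 5.97%, 7.61%, 6.05% and 6.16% of the summed Gabbr1 and Gabbr2 counts in PAM libraries 1 to 4, against 12.6%, 12.8%, 12.3% and 11.7% in vehicle libraries 1 to 4. Every PAM share was below every vehicle share, and the PAM library nearest to the vehicle group was the 2nd, with a 95% Wilson interval of 6.93% to 8.35%, against 10.9% to 12.7% for the lowest vehicle library, the 4th. The mean share was 6.45 ± 0.778% with PAM and 12.4 ± 0.475% with vehicle (SD, n = 4 each).

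There were 15.8, 12.1, 15.5 and 15.2 Gabbr1 counts per Gabbr2 count in PAM libraries 1 to 4, against 6.91, 6.81, 7.16 and 7.52 in vehicle libraries 1 to 4. Per kilobase the ratio of Gabbr1 to Gabbr2 averaged 11.9 ± 1.38 with PAM and 5.77 ± 0.257 with vehicle (SD, n = 4 each). The log2 ratio of Gabbr2 to Gabbr1 differed by -1.04 ± 0.09 (SE) between PAM and vehicle, a 2.05-fold lower ratio with PAM. An exact two-sided permutation test of this 1 ratio gave p = 0.0286, which is the smallest p that 4 libraries against 4 allow.

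**Figure D2:**
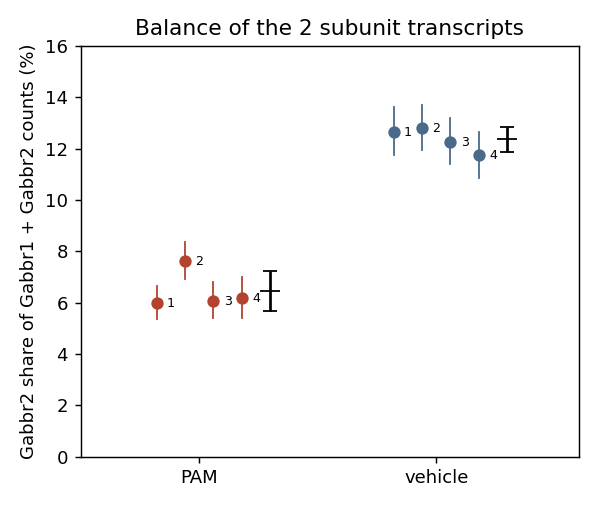
Share of Gabbr2 in the summed Gabbr1 and Gabbr2 counts of each library, in percent, with 95% Wilson intervals as coloured lines (counting error only) and the group mean and SD as black bars. PAM libraries lie between 5.97% and 7.61% and vehicle libraries between 11.7% and 12.8%.

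Markers of several cell types moved with treatment beside the subunit genes, and in bulk RNA fewer cells of a type and less RNA per cell cannot be told apart. Of 9 tested pan-neuronal markers 4 fell, with a median log2 fold change of -0.66, against 9.90% of all tested genes falling and 9.00% rising. Their summed level was 2691 to 3271 CPM with PAM and 3521 to 3944 CPM with vehicle. Without PAM libraries 3 and 4, 5 pan-neuronal and 4 excitatory neuron markers fell. In that setting 1526 of 12253 tested genes fell and 1374 rose. Excitatory neuron markers summed to 881 to 1005 CPM with PAM and 1369 to 1619 CPM with vehicle (3 of 7 fell), and inhibitory neuron markers to 1107 to 1667 CPM with PAM and 1589 to 1775 CPM with vehicle (3 of 10 fell and 1 rose; 6 fell without PAM libraries 3 and 4). The cultures thus gave neuronal markers of both classes, and no matched marker on these lists was at 0 in all libraries.

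Of 9 astrocyte markers 5 rose, against 9.00% of all tested genes rising and 9.90% falling. Their summed level was 9142 to 11118 CPM with PAM and 6254 to 6569 CPM with vehicle. Of 10 oligodendrocyte lineage markers 5 rose and 1 fell (0 fell without PAM libraries 3 and 4), with sums of 1343 to 1739 CPM with PAM and 952 to 1064 CPM with vehicle. All 5 tested ependymal and choroid plexus markers rose, with sums of 115 to 201 CPM with PAM and 39.0 to 53.7 CPM with vehicle. Vascular and meningeal markers summed to 125 to 195 CPM with PAM and 98.6 to 142 CPM with vehicle (2 of 5 rose). Microglia markers summed to 12.6 to 18.0 CPM with PAM and 15.3 to 45.8 CPM with vehicle (0 of 2 passed). Only 4 of 8 microglia, 5 of 9 vascular and meningeal and 7 of 9 ependymal and choroid plexus markers were matched. These sums and calls thus cover part of each list.

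Set against the mean log2 CPM of the 9 pan-neuronal markers, an alternative chosen after the data were seen, Gabbr2 was still lower with PAM, by a log2 difference of -0.77 ± 0.06 (SE). Gabbr1 then had the opposite sign, at 0.26 ± 0.08 (SE), since the markers' own mean differed by -0.56 ± 0.06. Each of these 3 differences had p = 0.0286 in an exact two-sided permutation test, the smallest that 4 libraries against 4 allow. The mean gave each marker equal weight, and single markers had log2 fold changes from -0.97 (Elavl3) to 0.02 (Nefl). Gabbr1, at -0.30, lay within this range, so its sign depends on the markers taken and their weights. Gabbr2, at -1.34, lay below it. The part of cell composition in the subunit differences was not tested.

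**Figure D3:**
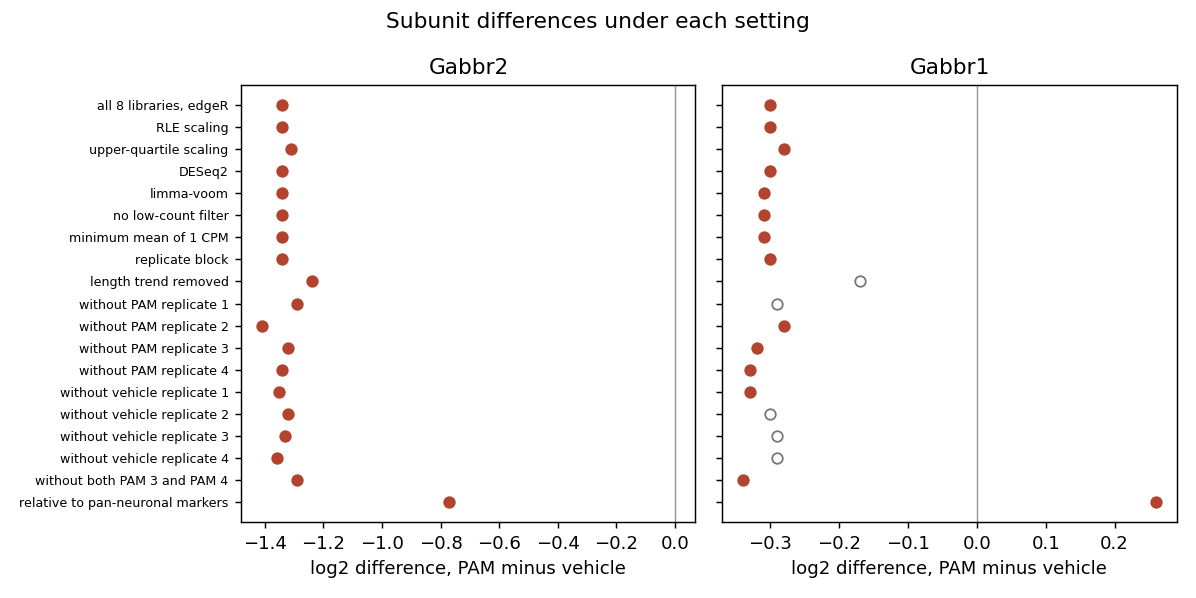
log2 difference between PAM and vehicle libraries for Gabbr2 (left) and Gabbr1 (right) under each processing alternative, filled where the adjusted p (for the bottom row, the exact permutation p) was under 0.05 and open where it was not. Gabbr2 stays between -1.41 and -1.24 except relative to pan-neuronal markers (-0.77), and Gabbr1 lies between -0.34 and -0.17, with 5 open points, except relative to pan-neuronal markers (0.26).

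The G proteins that GABA-B receptors engage gave 4 falls and 0 rises among 13 tested subunit genes, with a median log2 fold change of -0.24, against 0.02 over all tested genes and 9.90% of them falling. Pan-neuronal and excitatory neuron markers were lower as well, with medians of -0.66 and -0.65 (-0.52 and -0.43 without PAM libraries 3 and 4). Their part in this count and in those of the lists that follow was not tested. Gnao1, which encodes the Gαo subunit abundant in brain, had 165, 211, 147 and 96.5 CPM in PAM libraries 1 to 4, against 265, 269, 254 and 271 CPM in vehicle libraries 1 to 4. The PAM libraries were spread widely and the 4th was the lowest, while the vehicle libraries were nearly level. Its log2 fold change was -0.76 ± 0.16 (SE; adjusted p 0.0031, edgeR), and -0.47 without PAM libraries 3 and 4. Gnai1, for Gαi1, had 21.5 to 46.9 CPM with PAM and 51.7 to 60.2 CPM with vehicle (log2 fold change -0.94 ± 0.21). Gnaz, for the pertussis toxin-resistant Gαz, averaged 37.7 ± 3.54 CPM with PAM and 58.1 ± 6.37 CPM with vehicle (-0.62 ± 0.15), and the γ subunit gene Gng4 85.6 ± 10.6 CPM with PAM and 132 ± 11.3 CPM with vehicle (-0.62 ± 0.12). Gnai2, the most abundant of the list in CPM, had 703 ± 72.5 CPM with PAM and 584 ± 32.0 CPM with vehicle, and did not pass (log2 fold change 0.27 ± 0.10, adjusted p 0.0742, edgeR). It passed as higher with PAM in 5 other settings: upper-quartile scaling (adjusted p 0.0458), DESeq2 (0.0451), and without PAM library 2 (0.0485), 4 (0.0211) or 3 and 4 together (0.0047). Without PAM libraries 3 and 4, the ones with fewer counts in long genes, 7 genes of the list fell and 2 rose. More genes passed in that setting over the whole comparison, with 1526 of 12253 tested genes falling and 1374 rising.

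Among 6 tested genes that regulate the speed of this G protein cycle, Rgs4 fell and 5 did not pass, close to the 18.9% of all tested genes that passed, and the median log2 fold change was -0.07 (0.03 without PAM libraries 3 and 4). Rgs4 accelerates GTP hydrolysis on Gi/o α subunits. It averaged 234 ± 11.1 CPM with PAM and 339 ± 36.5 CPM with vehicle (SD, n = 4 each), a log2 fold change of -0.53 ± 0.11 (SE) with an adjusted p of 0.0014 in edgeR. Its groups did not overlap, as for 22.3% of all tested genes.

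The GIRK channel subunits, which carry the postsynaptic potassium current of GABA-B receptors, gave 0 calls among 3 tested genes. With 18.9% of all tested genes passing, 0 of 3 says little about the list. Their summed level was 28.2 to 42.0 CPM with PAM and 29.6 to 42.8 CPM with vehicle, so the groups overlapped almost fully. Kcnj9 (GIRK3) was the highest, with 119, 88, 99 and 92 counts in PAM libraries 1 to 4, against 85, 85, 93 and 67 counts in vehicle libraries 1 to 4, and a log2 fold change of 0.08 ± 0.20 (SE). Its means of 26.5 CPM with PAM and 24.9 CPM with vehicle were most of the summed level, which thus says little of the other subunits. Kcnj3 (GIRK1) had 8 to 28 counts per PAM library and 12 to 43 per vehicle library (log2 fold change -0.93 ± 0.48, adjusted p 0.194, edgeR). Kcnj6 (GIRK2) had 11 to 19 counts per PAM library and 0 to 18 per vehicle library (0.56 ± 0.62, adjusted p 0.584, edgeR), and both genes had wide errors. Kcnj5 (GIRK4), with 0 to 1 counts per PAM library and 3 to 5 per vehicle library, was below the filter on low counts.

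Of 5 tested genes for the presynaptic calcium channels that GABA-B receptors restrain, 4 fell and 0 rose, against 9.90% of all tested genes falling, and the median of their log2 fold changes was -0.84. The medians of the pan-neuronal and excitatory neuron markers were -0.66 and -0.65. Without PAM libraries 3 and 4 these marker medians were -0.52 and -0.43, and that of the channel genes was -0.76. Cacnb3, an auxiliary β subunit of N-type channels, had 92.9, 87.0, 107 and 104 CPM in PAM libraries 1 to 4, against 185, 167, 181 and 168 CPM in vehicle libraries 1 to 4. All PAM libraries were lower, and its log2 fold change was -0.84 ± 0.11 (SE; adjusted p 3.20e-05, edgeR). Cacna1a, the pore of P/Q-type channels, averaged 78.2 ± 7.75 CPM with PAM and 125 ± 8.02 CPM with vehicle (log2 fold change -0.68 ± 0.12), and Cacna1b, the pore of N-type channels, 44.9 ± 6.68 CPM with PAM and 71.4 ± 8.89 CPM with vehicle (-0.68 ± 0.15). Cacna1e, the pore of R-type channels, had 23 to 38 counts per PAM library and 44 to 69 counts per vehicle library, and its groups overlapped in CPM. Its call (log2 fold change -0.97 ± 0.31, adjusted p 0.0319, edgeR) was lost without PAM library 1 (0.0968) or 2 (0.0675), without vehicle library 1 (0.103), 3 (0.0955) or 4 (0.056), and with the length trend removed (-0.81, 0.072). Without PAM libraries 3 and 4 it was -1.49 (0.00056).

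The cyclic AMP arm, which Gi/o signalling damps through adenylyl cyclase, gave 5 falls and 1 rise among 12 tested genes. Over all tested genes 9.90% fell and 9.00% rose, so 1 rise says little about the list. The median of the list was -0.49 on the log2 scale. Prkar1b, the largely neuronal regulatory subunit RIβ of protein kinase A, averaged 139 ± 26.7 CPM with PAM and 248 ± 14.8 CPM with vehicle (log2 fold change -0.84 ± 0.13 SE, adjusted p 0.00016, edgeR). Adcy3 and Adcy5, both adenylyl cyclases, had log2 fold changes of -0.77 ± 0.13 and -0.66 ± 0.16. Prkaca, the catalytic subunit Cα, averaged 220 ± 30.1 CPM with PAM and 315 ± 11.1 CPM with vehicle (-0.52 ± 0.11), and its 4th PAM library, at 265 CPM, stood above the other PAM libraries. Prkar2b, the regulatory subunit RIIβ, also fell (-0.57 ± 0.19, adjusted p 0.0397, edgeR), but its call was lost without PAM library 1 (0.127) or 4 (0.0552), without any 1 of the vehicle libraries (0.0517 to 0.114) and with upper-quartile scaling (0.0512). Adcy2, a cyclase that Gβγ stimulates, rose, with 88.0 ± 13.7 CPM with PAM and 65.7 ± 3.14 CPM with vehicle (0.42 ± 0.13, adjusted p 0.0298, edgeR). The call of Adcy2 was lost without PAM library 1 (0.112) or 2 (0.0599), without any 1 of the vehicle libraries (0.0541 to 0.0841) and with the replicate block (0.0538), so only the falls of Prkar1b, Adcy3, Adcy5 and Prkaca passed in every setting on this list.

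Genes for proteins that bind GABA-B receptors or take part in their traffic gave 5 falls and 0 rises among 12 tested, against 9.90% of all tested genes falling, with a median log2 fold change of -0.24. Pianp and Ajap1 are membrane proteins that bind the N-terminal sushi domains of GABA-B1a. Pianp had 61.3, 66.6, 76.6 and 91.5 CPM in PAM libraries 1 to 4, against 108, 131, 130 and 124 CPM in vehicle libraries 1 to 4. No PAM library reached the lowest vehicle library, and the log2 fold change was -0.74 ± 0.13 (SE; adjusted p 0.0006, edgeR). Ajap1 averaged 16.8 ± 3.65 CPM with PAM and 29.2 ± 3.22 CPM with vehicle (-0.78 ± 0.20). App, whose product also binds these sushi domains, did not pass (-0.27 ± 0.12, adjusted p 0.12, edgeR), except without PAM library 2 (-0.36, 0.0278).

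Hcn2, a cation channel subunit that opens on hyperpolarisation, averaged 124 ± 19.3 CPM with PAM and 203 ± 25.2 CPM with vehicle (log2 fold change -0.71 ± 0.13). Jakmip1, which binds GABBR1 and microtubules, averaged 40.9 ± 10.5 CPM with PAM and 64.3 ± 6.56 CPM with vehicle (-0.67 ± 0.17), and Nsf, the ATPase that takes SNARE complexes apart, 444 ± 32.5 CPM with PAM and 585 ± 32.9 CPM with vehicle (-0.40 ± 0.10). The groups did not overlap for any of these 3 genes, which were named because they passed, nor for 22.3% of all tested genes. Ywhae, a 14-3-3 protein gene and the list's most abundant in CPM, had 1608 ± 71.8 CPM with PAM and 1471 ± 71.4 CPM with vehicle and did not pass (0.13 ± 0.09, adjusted p 0.362, edgeR). Atf4, whose product binds both receptor subunits and the cyclic AMP response element, had 730 ± 131 CPM with PAM and 724 ± 53.9 CPM with vehicle (0.01 ± 0.12).

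Of 7 tested genes that make, load or clear the receptor's ligand, 3 fell and 0 rose, against 9.90% of all tested genes falling, and the median of their log2 fold changes was -0.29. Slc32a1, which loads GABA into vesicles, had 73.6, 81.1, 74.7 and 72.8 CPM in PAM libraries 1 to 4, against 133, 150, 151 and 147 CPM in vehicle libraries 1 to 4. Replicates were tight in both groups and far apart between them, with a log2 fold change of -0.94 ± 0.11 (SE; adjusted p 1.21e-05, edgeR). The synthesis genes did not pass: Gad2 averaged 336 ± 67.2 CPM with PAM and 412 ± 20.8 CPM with vehicle (-0.29 ± 0.13, adjusted p 0.111), and Gad1 had the same log2 fold change (adjusted p 0.115, edgeR). Without PAM library 4, 5 genes of this list passed, Gad2 and Gad1 among them, both at -0.38. In that setting 2408 of all tested genes passed, against 2219 with all 8 libraries. Gad2 also passed without PAM library 2 (-0.38), and Gad1 without PAM libraries 3 and 4 (-0.29). The mainly glial carrier gene Slc6a11 (GAT3) had 52, 71, 23 and 7 counts in PAM libraries 1 to 4, against 57, 76, 52 and 72 counts in vehicle libraries 1 to 4. Its call (-1.06 ± 0.35, adjusted p 0.0409, edgeR) was lost without PAM library 3 (0.119), any of the vehicle libraries (0.0576 to 0.122) or PAM libraries 3 and 4 together (0.168, at -0.50), and with upper-quartile scaling (0.0519).

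**Figure D4:**
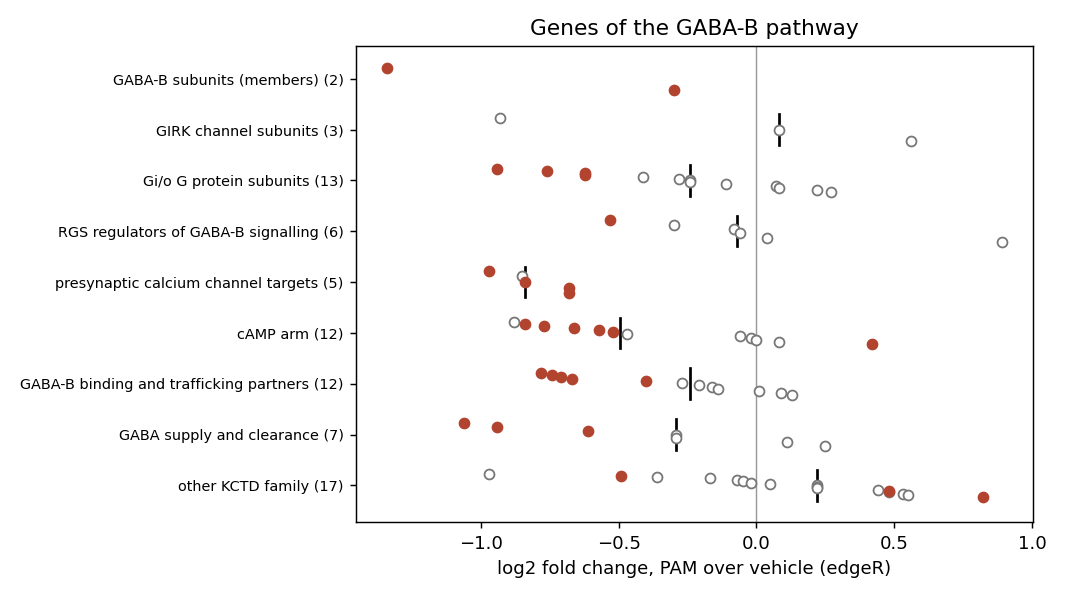
log2 fold change (PAM over vehicle, edgeR) of the 2 measured subunit genes and of every tested gene on 8 related lists, with the number tested in parentheses, filled where the adjusted p was under 0.05 and open where it was not, and a black bar at the median of each of the 8 lists. Filled points lie left of 0 except Adcy2, Kctd6 and Kctd15.

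The other KCTD genes share the BTB domain of the auxiliary subunits, and several serve as adaptors of cullin-3 ubiquitin ligases. Of 21 on the list, 19 were matched and 17 tested; 2 rose, 1 fell and 14 did not pass, with a median log2 fold change of 0.22. Without PAM libraries 3 and 4, 2 of the list fell and 2 rose, against 1526 of 12253 tested genes falling and 1374 rising. The 3 calls are near the 18.9% of all tested genes that passed. Their summed level was 851 to 943 CPM with PAM and 880 to 925 CPM with vehicle, so the groups overlapped.

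Kctd13, an adaptor for RhoA degradation and the list's highest gene, had 165, 157, 185 and 142 CPM in PAM libraries 1 to 4, against 210, 212, 238 and 249 CPM in vehicle libraries 1 to 4. It was lower in every PAM library, with a log2 fold change of -0.49 ± 0.11 (SE; adjusted p 0.0045, edgeR). Kctd15, known from zebrafish as an inhibitor of AP-2 transcription factors, had 97.0, 92.1, 97.6 and 82.9 CPM in PAM libraries 1 to 4, against 52.8, 73.2, 68.2 and 70.5 CPM in vehicle libraries 1 to 4. It was higher in every PAM library (0.48 ± 0.13, adjusted p 0.0126, edgeR). Kctd6, another cullin-3 adaptor, averaged 27.1 ± 4.59 CPM with PAM and 15.4 ± 4.14 CPM with vehicle (SD, n = 4 each), with 106, 129, 123 and 65 counts in PAM libraries 1 to 4, against 55, 48, 36 and 64 counts in vehicle libraries 1 to 4. The scaled groups did not overlap, but the call (0.82 ± 0.22, adjusted p 0.0146, edgeR) was lost without PAM library 3 (0.0568) or vehicle library 2 (0.0577) or 3 (0.0575).

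**Figure D5:**
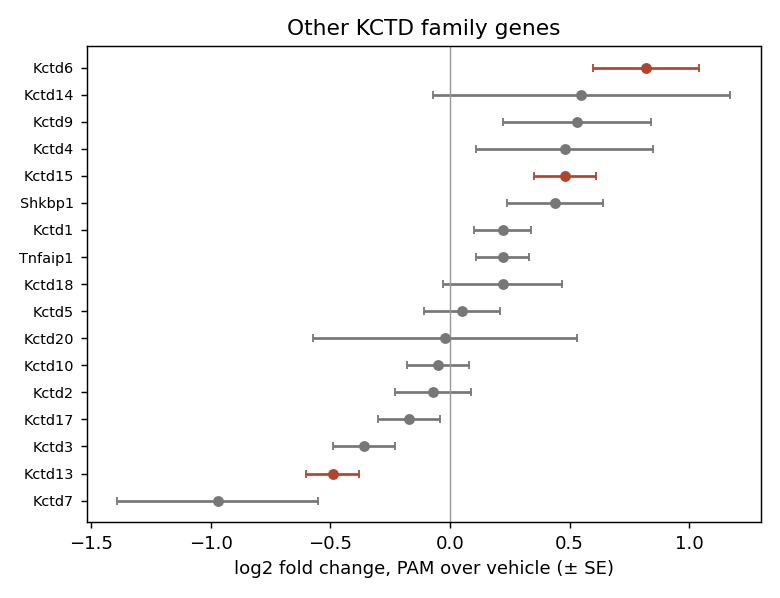
log2 fold change (PAM over vehicle) with its SE for the 17 tested genes of the other KCTD family, red where the edgeR adjusted p was under 0.05 and grey where it was not. Kctd6 and Kctd15 lie above 0 and Kctd13 below it among the genes that passed.

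Across the 8 libraries the log2 CPM of Gabbr2 was most like that of Rnf14 (Pearson r = 0.996), Ap3d1 (0.994) and Atp2b2 (0.994) among 11327 tested genes with a symbol. Among the genes most like Gabbr1 were Rtn1 (0.994) and Ncs1 (0.991). Rnf14 encodes a ubiquitin ligase, Ap3d1 a subunit of the AP-3 sorting complex and Atp2b2 a plasma membrane calcium pump, while Rtn1 encodes a reticulon and Ncs1 a calcium sensor. The 8 libraries fall into 2 groups that these genes also separate, and 466 genes had an r above 0.9 with Gabbr2 and 393 with Gabbr1. Atp2b2 had a log2 fold change of -1.40, close to that of Gabbr2, whereas Ap3d1 had -0.39 and Rnf14 -0.56. The 2 subunit genes had an r of 0.931 with each other over the 8 libraries and -0.183 once each group's mean was removed. Within groups, Pdik1l (0.962), Sugp2 (0.958) and Mdm4 (0.947) were most like Gabbr2. Tmem255b (0.995), Trappc1 (0.987) and Zdhhc16 (0.983) were most like Gabbr1. On this measure 13 genes had an r above 0.9 with Gabbr2 and 143 with Gabbr1. Pdik1l (9.96 CPM with PAM, 9.70 with vehicle) and Mdm4 (6.82 with PAM, 5.56 with vehicle) were low in abundance. These values only describe 8 libraries that share their preparation.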

How the data were processed

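Polyadenylated RNA was measured in 4 PAM and 4 vehicle libraries. The authors deposited 1 table of whole-number counts per gene for each library; per the submitters' processing notes, the tools were STAR, featureCounts, DESeq2 and DESeq and the build was Rnor_6.0. Tool versions, strandedness and how multi-mapping reads were handled: not given in the sources used here. The authors also deposited a comparison table which holds, per the file headers, group means of scaled counts (a signal), the log2 fold change and its raw and adjusted p-value. That table supplied symbols for 13739 Ensembl identifiers, which held 97.6% of all counts.

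Gene counts were tested in edgeR 4.0.16 under R 4.3.3 (filterByExpr, TMM, robust quasi-likelihood F test, group as the only term, Benjamini-Hochberg adjusted p under 0.05 over all 11740 tested genes), a procedure also tested on simulated data. The SE is the log2 fold change over the square root of F. No replicate pair matched within sampling noise (chi-square 2.77 to 14.8 times its degrees of freedom), and all libraries were kept, at 2960406 to 4389430 counts each. The subunit ratio used counts plus 0.5. The members and lists were chosen with earlier results of these data known. Named genes are the members, up to 4 called genes per list by smallest p, each list's highest gene in CPM and, for each subunit, the 3 most correlated genes with a symbol over 8 libraries and within groups (log2 CPM, prior count 2). Adcy2, Prkar2b, App, Atf4, Gad1, Kcnj3, Kcnj5, Kcnj6 and Ajap1 were named outside this rule, after their values were seen. Some genes that the rule selects are not reported here. Alternatives were RLE and upper-quartile scaling, DESeq2 1.42.0, limma-voom (limma 3.58.1), other low-count filters, a replicate block, a loess length trend removed from each library (span 0.5), and leaving out libraries. Promoter windows came from RefSeq sequences on GRCr8.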

Additional observations from a re-analysis of the deposited data

Results flagged for a closer look

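The log2 ratio of Gabbr2 to Gabbr1 in PAM library 2 was -3.60, apart from the other PAM libraries at -3.98 to -3.93, by Dixon's test for a stray value in a group of 4. It lay on the side of the vehicle libraries, so without it the difference between groups was larger, at -1.13. Prkaca in PAM library 4 had 265 CPM by the same test, against 202 to 207 CPM in the other PAM libraries, and also lay toward the vehicle group. Of 76 groups checked these were the 2 that stood out. That is fewer than the 1 in 20 or so that chance gives, so neither is remarkable by this count.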

How the results depend on the processing

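Gabbr2 kept its direction and its call in all 17 other settings listed for the comparison, with log2 fold changes of -1.41 to -1.24. Gabbr1 ranged from -0.34 to -0.17 and lost its call in 5 of them. With the length trend removed it was -0.17 and the number of subunit genes called was 1 instead of 2; leaving out 1 library gave -0.33 to -0.28 and 1 to 2 subunit genes called. Relative to the equally weighted mean of the pan-neuronal markers, chosen after seeing the data, Gabbr1 was reversed at 0.26. This sign depends on the markers taken, and the cause was not tested. The log2 ratio of Gabbr2 to Gabbr1 ranged from -1.13 to -1.0 without 1 library and was -0.96 without PAM libraries 3 and 4; its exact permutation p could then not go below 0.0571 and 0.133, by construction. The replicate numbers did not pair the libraries (correlations of same-numbered deviations 0.0516, -0.0454, 0.0676 and -0.0595). With the replicate block the ratio was -1.04, with an exact permutation p of 0.125, the smallest that 4 pairs allow; Gabbr2 was -1.34, Gabbr1 -0.30 (adjusted p 0.0422, edgeR), 2064 genes passed, against 2219, and of the named pathway genes Adcy2 lost its call (0.0538). Over all alternatives 1527 to 2900 genes passed, the most without PAM libraries 3 and 4. Over the named pathway genes and these settings, 555 values stayed on their side of the threshold, 30 lost a call and 10 gained one. Of 8 pathway lists, 2 had a count of calls that moved by over 1.5 times, Gi/o proteins (9 calls, against 4, without PAM libraries 3 and 4) and GABA supply (5, against 3, without PAM library 4). Whether depth or spread between libraries limits the GIRK subunits was not tested.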
